A study of Homo sapiens with 4 samples.

Results

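To see how depletion of the YAP1-MAML2 (YM) fusion touched the Wnt pathway, 47 genes were followed that encode Wnt ligands, their receptors, their antagonists and the effectors inside the cell. They were taken as a list of names, chosen with earlier results of these data known, and 46 of the 47 were rows of the 19626-gene tables. WNT7A was not analysed here. The RNA came from ES-2, an established human ovarian clear cell carcinoma line with an endogenous YM fusion. One group was transduced with pLKO.1 lentivirus carrying a non-targeting shRNA (shCtl, n = 2 biological replicates), and the other with pLKO.1 lentivirus carrying an shRNA against MAML2 (shMAML2, n = 2), the hairpin that the study calls shM2-3. According to the labels, infection ran for 8 h on 2 consecutive days, and RNA was taken 96 h after the first infection. The paper's methods give infection on more days for fewer hours each. Their time to RNA is a smaller number of hours, but the point from which it was counted is not stated. The hairpin matches MAML2 and the MAML2 part of the fusion, so the loss of either transcript cannot be told apart in these libraries, and all values come from 1 cell line and 1 targeting hairpin.

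Wnt ligands are secreted lipid-modified proteins that bind Frizzled receptors together with LRP5 or LRP6. In the canonical branch, Dishevelled then halts the APC, AXIN and GSK3B destruction complex, so that β-catenin (CTNNB1) builds up and works with TCF/LEF factors on target genes. Other ligands, with WNT5A as the best known, act through ROR and RYK receptors and the planar cell polarity proteins. In ovarian carcinoma the pathway is known mainly from β-catenin mutations in endometrioid tumors and from WNT5A and ROR signaling in invasive cells.

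The libraries held between 20051083 and 23978660 estimated counts. MAML2, the targeted gene, had 1436 and 1402 counts with shCtl against 634 and 553 with shMAML2, or 8.44 ± 0.243 and 3.05 ± 0.0776 RPKM (reads scaled by transcript length and mapped reads, mean ± SD, n = 2). Its log2 fold change was -1.40, with a standard error (SE) of 0.0688. PAX8, WT1, NAPSA, ESR1 and FOLR1, markers of Müllerian and ovarian carcinoma, each had a mean of at most 0.300 RPKM in either group. EPCAM and CDH1 were under 0.1 RPKM on average, while KRT8 (mean of 71.9 RPKM in shCtl and 29.4 in shMAML2), KRT18 (297 and 177) and VIM (2921 and 2062) were abundant and lower in shMAML2. Of the other mesenchymal markers, FN1 had 178 and 3176 RPKM and CDH2 36.8 and 44.5. Among markers of other cell types, PTPRC, CD3E, DCN, LUM and POSTN stayed under 0.05 RPKM on average in both groups. The leukocyte marker CD14 was higher, with 3 and 4 counts with shCtl against 42 and 37 with shMAML2 (mean 0.0898 and 0.878 RPKM). LYZ had 33 and 15 counts against 100 and 5. The summed RPKM of 6 fibroblast markers was 7.95 to 8.01 in shCtl and 25.1 to 25.7 in shMAML2, nearly all of it PDGFRA. That of 4 endothelial markers was 9.40 to 10.6 and 5.09 to 5.65, with CDH5 lower and PECAM1 higher (mean 0.0342 and 1.12 RPKM), and that of 5 leukocyte markers was 57.4 to 58.3 and 40.0 to 41.1, nearly all of it CD68. All RNA was from the cultured ES-2 line, and no tissue was sampled. How these marker genes relate to the Wnt values was not tested.

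A total of 36 of the 46 members had an RPKM above 1 in at least 1 library and entered the test over 12157 genes. A gene is said to be called when the quasi-likelihood test of edgeR left it with a p, adjusted by the Benjamini-Hochberg method, of at most 0.05 and the fold change was 2 or more. Only 1 member, DKK1, was called lower, which is 2.78% of the 36 beside 8.93% of all genes tested. Another 10 members were called higher, or 27.8% beside 9.24% of all genes. These were FZD8, ROR1, FZD1, TCF7, WNT5A, TNIK, LRP5, TCF7L2, DVL3 and PRICKLE1. At an adjusted p of 0.05 or less without a fold limit, 23 members were higher (63.9% beside 36.3% of all genes), 8 were lower (22.2% beside 36.4%) and 5 did not pass. The median log2 fold change was 0.55 over the 36 members and -0.0037 over all genes tested. Because the members and the lists below were chosen with earlier results known, their shares beside all genes are descriptions and no independent test. WNT5A, ROR1 and PRICKLE1 passed the RPKM limit only in shMAML2 and FZD5 only in shCtl, so that the limit itself favored a difference for these 4. As in any bulk RNA sample, fewer cells that express a gene and less of its RNA per cell cannot be told apart.

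**Figure D1:**
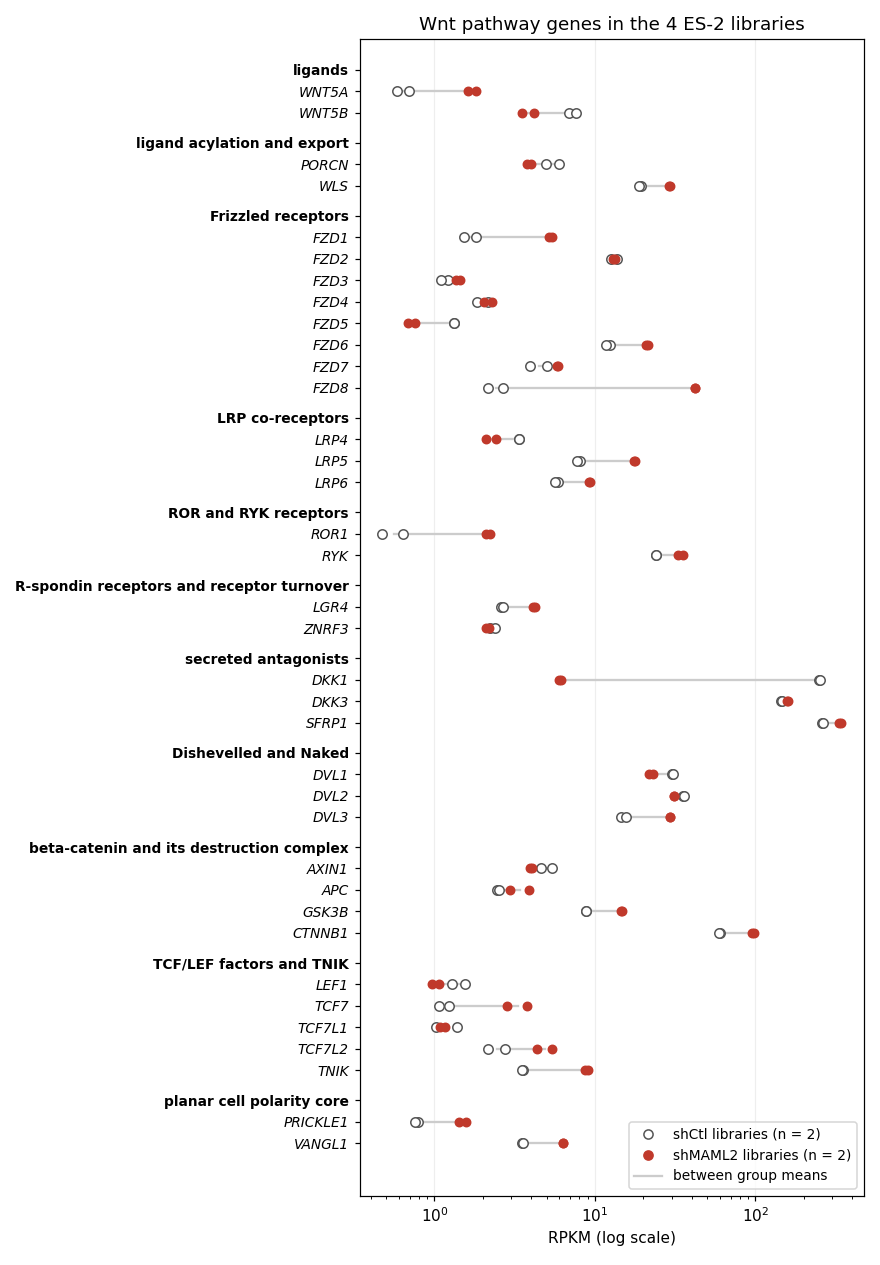
RPKM (log scale) of the 36 tested Wnt members in each library, grouped by role, with open circles for the 2 shCtl libraries, filled circles for the 2 shMAML2 libraries and a line between the group means. DKK1 moved from 252 to 6.06 RPKM on average, and FZD8 from 2.41 to 42.1.

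DKK1 and FZD8 were the members that moved furthest in either direction, and their promoter sequences are shown for that reason. The windows run from 250 bases before to 50 bases after the start of the RefSeq transcript on GRCh38.p14, a patch release of the hg38 build used for alignment, and are written 5′ to 3′ on the strand of the gene. DKK1 lies on the plus strand (chr10:52314031-52314330) and FZD8 on the minus strand (chr10:35642247-35642546). Capitals mark CTTTGA, the core letters of a TCF/LEF site, and GGAATG, those of a TEAD site, on either strand.

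DKK1: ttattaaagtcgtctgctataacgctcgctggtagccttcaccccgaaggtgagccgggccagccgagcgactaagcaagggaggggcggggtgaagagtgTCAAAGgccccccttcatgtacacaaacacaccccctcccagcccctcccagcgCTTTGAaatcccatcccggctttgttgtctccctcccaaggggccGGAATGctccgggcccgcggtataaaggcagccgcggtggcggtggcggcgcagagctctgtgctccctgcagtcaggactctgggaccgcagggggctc

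FZD8: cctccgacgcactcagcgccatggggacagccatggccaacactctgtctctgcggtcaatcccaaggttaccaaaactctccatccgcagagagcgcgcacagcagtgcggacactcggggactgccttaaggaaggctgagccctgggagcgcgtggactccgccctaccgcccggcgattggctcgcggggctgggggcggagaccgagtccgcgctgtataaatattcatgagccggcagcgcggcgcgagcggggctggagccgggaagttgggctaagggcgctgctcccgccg

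The DKK1 window held CTTTGA 2 times, at -149 (as TCAAAG, on the opposite strand) and at -95, and GGAATG at -50, each counted from the transcript start to the first letter shown. The FZD8 window held neither. Of 34 members with a promoter in the RefSeq table, DKK1 was the only 1 with CTTTGA, and GGAATG was found in DKK1 and, at -240, in VANGL1. Of all 27305 RefSeq promoters, 3578 held CTTTGA (13.1%) and 3836 held GGAATG. Among those of genes tested here the shares were 8.37% and 10.9%. Of the 11 called members 1, DKK1, held either (9.09% for each). These are matches of letters, and no binding was measured.

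The secreted antagonists were the most abundant class. DKK1, which blocks LRP5 and LRP6 at the cell surface (chromosome 10, 52314281 to 52318042), had 250 and 254 RPKM in shCtl and 6.14 and 5.98 in shMAML2. The groups lay far apart, with 10551 and 10904 counts against 318 and 280. The log2 fold change of DKK1 was -5.31 (SE 0.0539, adjusted p = 8.66e-17, edgeR), a 39.6-fold fall, and it ranked 13 from the lowest of 12157 genes. By mean RPKM, which is scaled otherwise than the edgeR fit, 2.41% of the control level was left. Exons of PRKG1-AS1, read from the opposite strand, overlap DKK1, and libraries without strand do not separate shared reads. PRKG1-AS1 was also lower, with 29 and 31 counts with shCtl against 5 and 2 with shMAML2. SFRP1 encodes a decoy that binds Wnt ligands, and it had 261 and 264 RPKM in shCtl against 334 and 339 in shMAML2. Its log2 fold change was 0.42 (SE 0.0335). DKK3, a divergent Dickkopf relative, rose by less, with a log2 fold change of 0.19 (SE 0.0370) from a mean of 145 to 158 RPKM. DKK1 thus went from rank 2 among the 46 members by RPKM to rank 17, whereas SFRP1 was at rank 1 in both groups. Of the summed RPKM of the 3 antagonists, DKK1 took 38.1% and 38.2% in the shCtl libraries and 1.23% and 1.19% in the shMAML2 libraries.

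Among the 8 Frizzled receptors, 5 were higher and 1 lower at an adjusted p of 0.05 or less, and 2 of the 5 were called (62.5%, 12.5% and 25%, beside 36.3%, 36.4% and 9.24% of all genes). FZD8 (chromosome 10, 35638247 to 35642296) had 2.14 and 2.67 RPKM in shCtl and 42.1 and 42.1 in shMAML2. The knockdown libraries held 3839 and 3475 counts where the controls held 160 and 203. Its log2 fold change was 4.19 (SE 0.0782, adjusted p = 2.7e-14, edgeR), or 18.3-fold, which ranked 57 from the highest of all genes tested. An unnamed antisense RNA gene overlaps the exon of FZD8, and libraries without strand do not separate the reads. FZD1 (chromosome 7, 91264433 to 91271326) was also called, with 1.52 and 1.82 RPKM in shCtl and 5.20 and 5.39 in shMAML2, a log2 fold change of 1.73 (SE 0.0973, adjusted p = 2.14e-09, edgeR). FZD6 rose from 12.4 and 11.6 to 21.3 and 20.7 RPKM, a log2 fold change of 0.87 (SE 0.0573). FZD7 and FZD3 rose by 0.45 and 0.35 on the log2 scale, but FZD3 did not pass with limma (adjusted p = 0.185 and 0.174). FZD5 was the receptor that fell, from 1.33 and 1.32 RPKM to 0.759 and 0.685, with a log2 fold change of -0.81 (SE 0.158). FZD2 and FZD4 did not pass the test, and their groups overlapped. FZD2 had 12.6 and 13.7 RPKM in shCtl and 12.9 and 13.3 in shMAML2.

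These changes altered the make-up of the family. The summed RPKM of the 8 Frizzled genes was 37.3 and 39.1 in shCtl and 91.4 and 91.7 in shMAML2. FZD2 (34.3% on average) and FZD6 (31.6%) made up most of it in shCtl, where FZD8 had 5.75% and 6.84%. In shMAML2 FZD8 had 46.0% and 45.9%, and FZD2 had 14.1% and 14.5%.

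**Figure D2:**
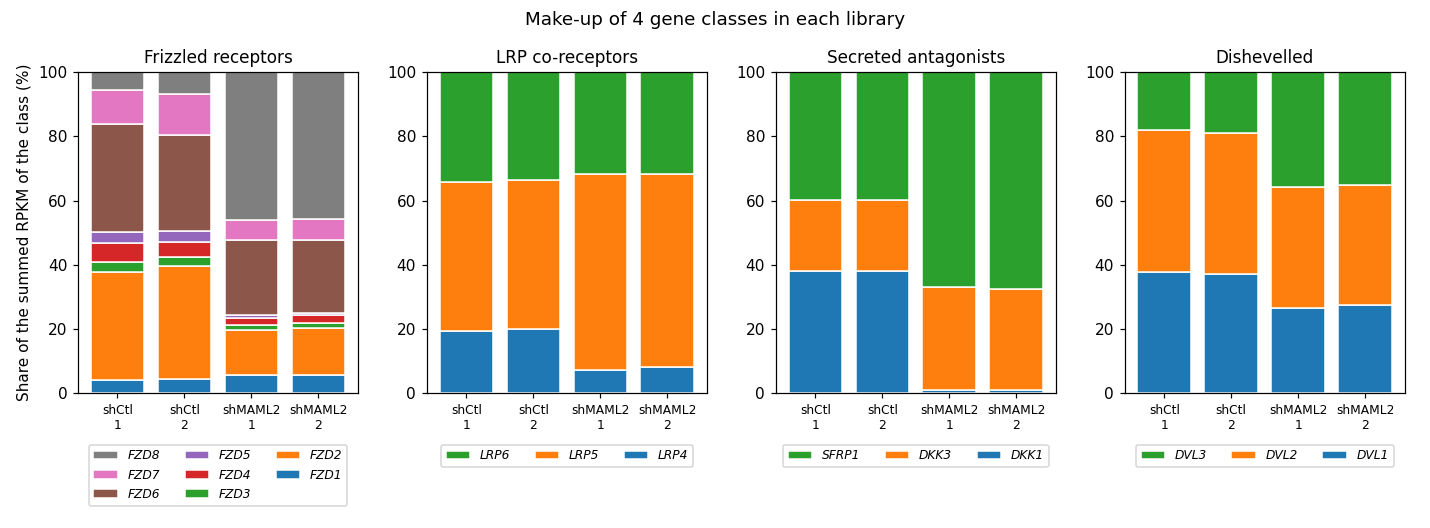
Share of the summed RPKM (%) that each gene took within its class in each of the 4 libraries, for Frizzled receptors, LRP co-receptors, secreted antagonists and Dishevelled genes. FZD8 went from 5.75% and 6.84% to 46.0% and 45.9% of the Frizzled sum, and DKK1 from 38.1% and 38.2% to 1.23% and 1.19% of the antagonist sum. NKD1 and NKD2, at most 1 count each in a library, are left out.

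The co-receptors LRP5 and LRP6, the surface targets of DKK1, were both higher. LRP5 (chromosome 11, 68312591 to 68449275) had 8.06 and 7.72 RPKM in shCtl and 17.8 and 17.4 in shMAML2, a log2 fold change of 1.22 (SE 0.0544, adjusted p = 1.82e-10, edgeR). LRP6 had 5.91 and 5.63 against 9.20 and 9.25 RPKM, a log2 fold change of 0.74 (SE 0.0517) that stayed under the fold limit. LRP4, a relative that binds agrin and sclerostin, fell from 3.34 and 3.35 to 2.11 and 2.41 RPKM. LRP5 accordingly went from 46.4% to 60.5% of the summed RPKM of the 3 genes, as group means.

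ROR1, a receptor-like kinase for WNT5A (chromosome 1, 63774017 to 64181498), was called higher. It had 0.474 and 0.638 RPKM in shCtl and 2.10 and 2.20 in shMAML2, from 73 and 100 counts to 395 and 376. The log2 fold change was 2.01 (SE 0.163, adjusted p = 9.39e-08, edgeR). Its relative ROR2 was barely detected, with 1 and 1 counts with shCtl against 12 and 5 with shMAML2, a ratio of 7.70 with an exact 95% interval of 1.83 to 68.7 that covers counting error only. RYK, a receptor with an inactive kinase domain, was by RPKM the most abundant of the 3. It rose from 24.2 and 23.9 to 32.9 and 35.2 RPKM, a log2 fold change of 0.57 (SE 0.0527).

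Of the ligands, WNT5A and WNT5B passed the RPKM limit for the test, and they moved in opposite directions. WNT5A (chromosome 3, 55465715 to 55490539) had 85 and 103 counts with shCtl against 291 and 294 with shMAML2, or 0.581 and 0.692 against 1.63 and 1.82 RPKM. Its log2 fold change was 1.5 (SE 0.168, adjusted p = 2.57e-06, edgeR). WNT5B, the ligand with the highest RPKM, fell from 6.85 and 7.62 to 4.14 and 3.53 RPKM, with a log2 fold change of -0.85 (SE 0.124, adjusted p = 3.27e-05, edgeR). WNT5B was higher than WNT5A in RPKM in all 4 libraries. Its share of the summed ligand RPKM was 89.1% and 90.8% in shCtl and 65.8% and 61.8% in shMAML2. WNT7B, a canonical ligand, had no count in either shCtl library but 40 and 17 with shMAML2, at least 8.44-fold higher against a floor of 3 counts per control library, and it stayed below 0.4 RPKM. WNT3 had between 6 and 20 counts in a library with overlapping groups, and WNT9A had 1 count in all.

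WLS and PORCN prepare ligands for secretion. WLS, the carrier that takes Wnt proteins to the cell surface, rose from 19.4 and 18.9 to 29.3 and 29.0 RPKM, a log2 fold change of 0.67 (SE 0.0512). PORCN, which attaches the lipid, had 4.99 and 5.93 RPKM against 3.98 and 3.76, a log2 fold change of -0.43 (SE 0.139, adjusted p = 0.0136, edgeR). It did not pass with DESeq2 (adjusted p = 0.0516), nor in edgeR without shCtl replicate 2 (-0.30, 0.148) or without shMAML2 replicate 2 (0.0609), and over all alternatives the adjusted p of PORCN ran from 0.00293 to 0.148.

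Receptor turnover is set by the ubiquitin ligases ZNRF3 and RNF43 and by the R-spondin receptors LGR4 and LGR5, which hold them in check. LGR4 rose from 2.60 and 2.65 to 4.22 and 4.12 RPKM, a log2 fold change of 0.73 (SE 0.0943). ZNRF3 had 2.23 and 2.39 RPKM in shCtl and 2.08 and 2.20 in shMAML2 and did not pass the test (log2 fold change -0.047, SE 0.104). LGR5 had between 49 and 73 counts in a library, and its groups overlapped. RNF43 had at most 8.

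Inside the cell, the Dishevelled genes split. DVL3 (chromosome 3, 184155377 to 184173614) had 14.6 and 15.5 RPKM in shCtl and 29.3 and 29.5 in shMAML2, a log2 fold change of 1.03 (SE 0.0470, adjusted p = 2.34e-10, edgeR). DVL1 and DVL2 fell, with log2 fold changes of -0.37 (SE 0.05) and -0.14 (SE 0.0449). DVL1 had 30.2 and 30.6 RPKM against 21.9 and 23.0. DVL2 did not pass with DESeq2 (adjusted p = 0.0745) or without shCtl replicate 2 (0.0787, edgeR). DVL3, the least abundant of the 3 in shCtl by RPKM, made up 18.2% and 18.9% of their class there and 35.7% and 35.3% in shMAML2. The feedback inhibitors NKD1 and NKD2 had at most 1 count in any library. The call of DVL3 sits on the fold limit, and without shCtl replicate 1 its log2 fold change was 0.99.

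β-Catenin itself was among the genes that rose. CTNNB1 had 60.3 and 59.0 RPKM in shCtl and 98.4 and 94.7 in shMAML2, a log2 fold change of 0.76 (SE 0.0406, adjusted p = 1.24e-09, edgeR). GSK3B, the kinase that marks β-catenin for breakdown, rose from 8.76 and 8.81 to 14.7 and 14.5 RPKM (log2 fold change 0.80, SE 0.0463). The scaffold APC rose by 0.52 on the log2 scale (SE 0.106), and its shMAML2 libraries were unequal, with 1272 and 871 counts against 655 and 691. The other scaffold, AXIN1, had 5.43 and 4.61 RPKM against 4.04 and 3.96, with an adjusted p of 0.0434 (edgeR). It did not pass with DESeq2 (adjusted p = 0.137), nor in edgeR without shCtl replicate 1 (log2 fold change -0.13, 0.377), shMAML2 replicate 1 (0.104) or shMAML2 replicate 2 (0.118), and over all alternatives the adjusted p of AXIN1 ran from 0.0066 to 0.377. AXIN2, a feedback target of β-catenin, had 63 and 66 counts with shCtl against 117 and 82 with shMAML2. At 0.632 and 0.651 against 0.959 and 0.743 RPKM it stayed below the limit for testing. In the fit without a filter on low values AXIN2 did not pass (adjusted p = 0.124, edgeR).

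**Figure D3:**
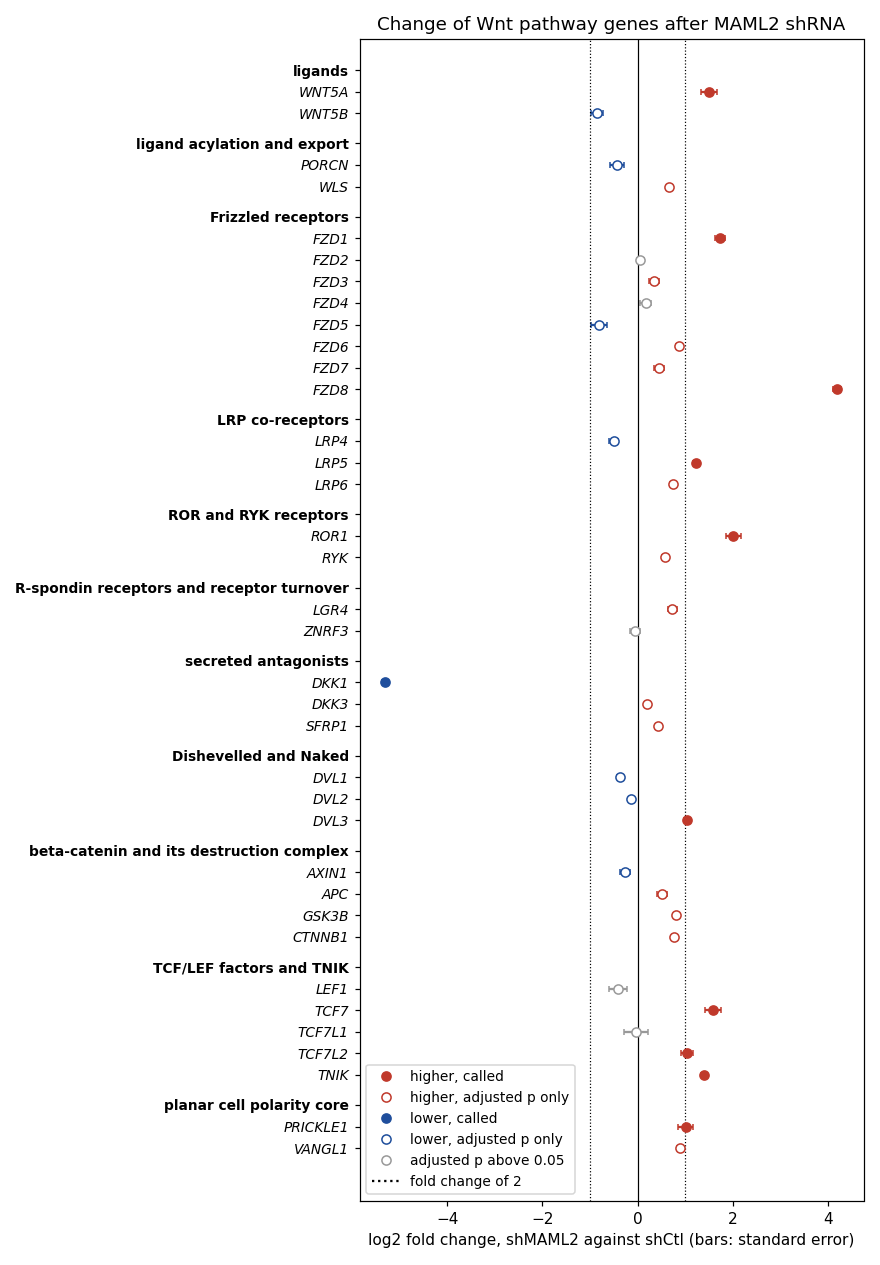
Log2 fold change of shMAML2 against shCtl for the 36 tested members, with the standard error as a bar and dotted lines at a fold change of 2. Filled points are the 11 called members, open colored points passed the adjusted p alone, and grey points did not pass it. DKK1 (-5.31) and FZD8 (4.19) lie furthest from 0.

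Of the TCF/LEF factors, which recruit β-catenin to DNA, TCF7 and TCF7L2 were called higher. TCF7 (chromosome 5, 134114681 to 134151865) had 1.23 and 1.07 RPKM in shCtl and 2.81 and 3.79 in shMAML2, a log2 fold change of 1.59 (SE 0.170, adjusted p = 1.68e-06, edgeR). Its exons overlap those of SKP1 on the opposite strand, which fell by 0.35 on the log2 scale. TCF7L2 (chromosome 10, 112950247 to 113167678) had 2.16 and 2.76 RPKM against 4.33 and 5.38, a log2 fold change of 1.04 (SE 0.131). Without shCtl replicate 1 it was 0.88 and without shMAML2 replicate 2 it was 0.87, both under the fold limit, with an adjusted p between 3.61e-06 and 0.000188 (edgeR). LEF1 had 150 and 127 counts with shCtl against 126 and 104 with shMAML2 and did not pass the test (log2 fold change -0.41, SE 0.196, adjusted p = 0.0738, edgeR). TCF7L1, mostly a repressor, did not pass either, with 1.37 and 1.03 RPKM against 1.16 and 1.08. TNIK, a kinase that acts on TCF7L2 complexes (chromosome 3, 171058414 to 171460408), rose from 3.58 and 3.49 to 9.08 and 8.68 RPKM, a log2 fold change of 1.39 (SE 0.0568, adjusted p = 7.2e-11, edgeR). TCF7L2 and TNIK each share exon sequence with an unnamed RNA gene of the opposite strand.

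Both tested members of the planar cell polarity core, which orients cells within a sheet, were higher at the adjusted p alone, beside 36.3% of all genes. PRICKLE1 passed the RPKM limit only in shMAML2, so the limit favored that direction for it, and the share is no support. Planar polarity genes outside the members did not share that direction. Of 7 tested, 3 were lower and 2 higher at the adjusted p alone (42.9% and 28.6%, beside 36.4% and 36.3% of all genes). CELSR2, among the higher, also passed the RPKM limit only in shMAML2. PRICKLE1 (chromosome 12, 42456757 to 42590355) had 118 and 115 counts with shCtl against 288 and 234 with shMAML2, a log2 fold change of 1.02 (SE 0.159, adjusted p = 6.1e-05, edgeR). It sits on the fold limit as well, at 0.98 without shCtl replicate 2 and 0.94 without shMAML2 replicate 1, and its exons overlap PPHLN1, which rose by 0.49 on the log2 scale. VANGL1, a membrane protein of the same complex, rose from 3.51 and 3.58 to 6.36 and 6.28 RPKM (log2 fold change 0.90, SE 0.0641). Its relative VANGL2 had 1 count in all libraries together.

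A further list of 80 pathway genes outside the members was read in the same test. Of these 69 were in the tables and 42 were tested, with 2 called lower and 5 called higher (4.76% and 11.9%, beside 8.93% and 9.24% of all genes). At the adjusted p alone, 10 were lower and 23 higher (23.8% and 54.8%, beside 36.4% and 36.3%). CXXC4 and CELSR2, both called higher, passed the RPKM limit only in shMAML2, and WNT10B and KREMEN2, the 2 called lower, only in shCtl, so that the limit favored a difference for them. TLE4, a Groucho corepressor that binds TCF factors, had 2.50 and 2.82 RPKM in shCtl and 14.5 and 14.6 in shMAML2, a log2 fold change of 2.52 (SE 0.0725, adjusted p = 1.96e-12, edgeR). Its relative TLE1 fell by 0.63 on the log2 scale.

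The other called genes of this list include proteins that bind Dishevelled and limit the signal. CXXC4 rose from 87 and 74 counts to 414 and 394, with a log2 fold change of 2.18 (SE 0.153). CXXC5 and DACT1 had log2 fold changes of 1.28 (SE 0.0786) and 1.21 (SE 0.146), and CXXC4 and CXXC5 each overlap an antisense RNA gene. CELSR2, an atypical cadherin of the planar polarity system, had 139 and 138 counts with shCtl against 628 and 477 with shMAML2, a log2 fold change of 1.85 (SE 0.129). WNT10B, a canonical ligand, was lower, with 57 and 67 counts against 7 and 9 and a log2 fold change of -3.07 (SE 0.455, adjusted p = 3.73e-05, edgeR). KREMEN2, a receptor that works with DKK1 on LRP6, had 31 and 65 counts against 12 and 19, a log2 fold change of -1.75 (SE 0.498, adjusted p = 0.00619, edgeR). The KREMEN2 call was lost without shCtl replicate 2 (adjusted p = 0.0992, edgeR) and without shMAML2 replicate 1 (0.0553), and its exons overlap PKMYT1, which fell by 0.97 on the log2 scale. KREMEN1 rose, with a log2 fold change of 0.66 (SE 0.0717).

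Genes known as direct targets of β-catenin and TCF did not move in 1 direction. Outside the members, 10 of 17 were tested, of which 2 were called lower and 2 called higher (20% each, beside 8.93% and 9.24% of all genes). At the adjusted p alone 3 were lower and 6 higher (30% and 60%, beside 36.4% and 36.3%). SOX9, a transcription factor of progenitor cells, rose from 12.1 and 13.1 to 69.0 and 71.6 RPKM, a log2 fold change of 2.54 (SE 0.0513). TBX3, which also overlaps an antisense RNA gene, had a log2 fold change of 1.36 (SE 0.0532). CCND1, cyclin D1, rose from 125 and 124 to 212 and 214 RPKM, a log2 fold change of 0.84 (SE 0.0358). MYC and FOSL1 were called lower, with log2 fold changes of -2.90 (SE 0.0436) and -1.53 (SE 0.0393). The paper lists MYC among YAP1/TEAD target genes. The part of YAP1/TEAD input in the changes of these genes, lower or higher, was not tested. Of 8 feedback targets among the members, only 4 passed the RPKM limit for the test. DKK1 fell and TCF7 rose, LEF1 and ZNRF3 did not pass, and AXIN2, LGR5, RNF43 and NKD1 were below the RPKM limit.

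**Figure D4:**
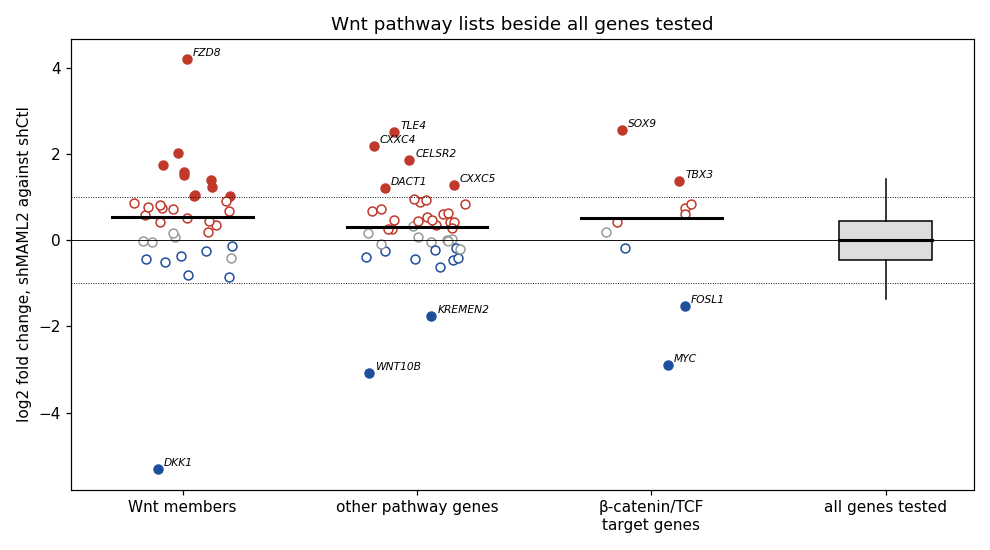
Log2 fold change of shMAML2 against shCtl for the 36 tested members, the 42 tested other pathway genes and the 10 tested β-catenin/TCF target genes outside the members, beside all 12157 genes tested. Filled points are called, open colored points passed the adjusted p alone, grey points did not, and thick lines are medians (0.55, 0.30, 0.51 and -0.0037). The box spans the quartiles of all genes, and its whiskers reach the outer percentiles (5 and 95).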

How the data were processed

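RNA of ES-2 cells from 2 shCtl and 2 shMAML2 biological replicates was sequenced without strand, in paired reads of 150 bp. Alignment by the authors was to hg38 with HISAT2 2.0.4. They removed ambiguous reads and those of low mapping quality, and quantified RefSeq transcripts in Partek 7.18. The deposited estimated counts are unscaled and can be fractional (whole numbers make up between 42.6% and 48.8% of the values of a library). The deposited RPKM values are scaled by transcript length and by mapped reads, so levels of different genes were compared only in RPKM.

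Rounded estimated counts entered the quasi-likelihood test of edgeR 4.0.16 under R 4.3.3, with TMM scaling and no block. It covered the 12157 genes whose RPKM exceeded 1 in any of the 4 libraries, as in the study's filter. P-values were adjusted over all of them by the Benjamini-Hochberg method. The SE was computed as the absolute log2 fold change over the root of the F statistic. The planned fit was written for counts, and the rounding follows from the values. On simulated counts for the 12157 genes, 200 of 200 genes changed 4-fold were recovered and 0 unchanged genes were called. The changed genes were drawn from those above a count minimum, and all genes were given the same spread. The simulation therefore says little of low members or of those on the fold limit. Replicates differed by 3.46 (shCtl) and 3.98 (shMAML2) times the sampling variance, so none was a copy of the other. That spread does not tell separate cultures from separate libraries of 1 culture, and the titles call them biological replicates. With 2 libraries a group, p-values rest on the spread shared across genes. Positions and overlaps come from GENCODE release 44, and promoters from RefSeq (GRCh38.p14, 34 of 47 members matched).

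The members and lists were chosen with earlier results of these data known. Every called member is named, together with the lowest and highest member of each role, CTNNB1, AXIN2, LEF1, ROR2, LRP6 and MAML2 in any case, and the 3 lowest and 3 highest called genes of each other list. Further members are described by their values, and 1 cell type marker is not reported here. CXXC5, DACT1, TLE1, KREMEN1 and CCND1, with the overlapping genes SKP1, PPHLN1, PKMYT1 and PRKG1-AS1, were named after their values were seen. Alternatives were DESeq2 1.42.0, other scaling and filters, limma 3.58.1 on log2(RPKM + 0.1) and log2(RPKM + 1), a fold limit of 1.5, leaving out each library in turn, and adding a replicate block.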

Additional observations from a re-analysis of the deposited data

How the results depend on the processing

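The call of DKK1 as lower and those of FZD8, FZD1, ROR1, LRP5 and TNIK as higher held under each alternative fit run. Of 432 log2 fold changes of members under these fits, 410 kept their direction and whether they were called, 16 kept the direction but lost the call and 6 changed sign. At the adjusted p alone, 11 of the 432 no longer passed, all in PORCN, FZD3, DVL2 and AXIN1, and LEF1 passed without a filter (0.0439, edgeR). With DESeq2 5 members were lower at the adjusted p alone, against 8 with edgeR. The sign changes were in members that had not passed the test: FZD2 (-0.0032 and -0.0030 with limma on log2(RPKM + 0.1) and log2(RPKM + 1)), ZNRF3 (-0.093 to 0.00086 with 1 library left out, above 0 without shCtl replicate 2 or shMAML2 replicate 1) and TCF7L1 (-0.23 to 0.20, above 0 without shCtl replicate 1 or shMAML2 replicate 2). With total counts DVL3 (0.998) and PRICKLE1 (0.98) fell just short of the fold limit, leaving 8 members called higher.

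With limma on log2(RPKM + 0.1), 7 members were called higher, without DVL3 (0.96), TCF7L2 (0.95) and PRICKLE1 (0.87). The median over all genes tested was -0.068 there and -0.059 on log2(RPKM + 1), against -0.0037 in the main fit. Limma on log2(RPKM + 1) understates changes of low genes. It called 5 members higher, 0 other pathway genes lower and 3 higher, and 596 of all genes higher. DVL3, at 14.6 to 29.5 RPKM and so no low gene, was also not called with log2(RPKM + 1) (0.92). In that fit WNT10B was at -0.94 and KREMEN2 at -0.63, with an adjusted p of 0.0004 and 0.021, against 2 called lower by edgeR and by DESeq2. A fold limit of 1.5 called 3 members lower and 17 higher, 13 other pathway genes and 6 target genes higher, and 2302 and 2296 of all genes lower and higher. Without a filter on low values 5 other pathway genes were called lower, and WNT7B was called higher (adjusted p = 4.66e-08, edgeR). Leaving out 1 library at a time gave 8 to 9 members called higher and 1 to 2 other pathway genes called lower (1 without shCtl replicate 2 or shMAML2 replicate 1). The lone library is then assumed to vary like the others.

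The titles number the replicates alike in both groups, but nothing ties equal numbers to a shared culture or day, and their deviations correlated at -0.029. With the replicate block 1 member was called lower and 10 higher, the same counts as without it. The depth limits what can be said of RNF43, WNT9A, NKD1, NKD2 and VANGL2, where differences were not detectable, and without a filter ROR2 had an adjusted p of 0.106 (edgeR).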
